A study of Mus musculus with 265 samples.

Results

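The genes of glucose uptake and energy restriction analysed here are Nr3c1, Txnip and Cnr2, which hold back glucose use, and Slc2a1, Slc2a3, Slc2a6, Hk1, Hk2, Pfkl and Ldha, which carry it out. Their members in the scATAC-seq matrix were the regions whose nearest protein-coding start site in GENCODE vM21 was that of one of these 10 genes and lay within 50 kb on mm10. This rule used position alone and found 27 of the 20103 regions, 8 for the repressors of glucose use and 19 for the transport and glycolysis genes. Nr3c1 had 6 regions, Txnip 2, Slc2a1 5, Slc2a3 3, Slc2a6 2, Hk1 1, Hk2 1, Pfkl 3 and Ldha 4, so that 9 of the 10 genes had a region. Cnr2 had none. The region closest to its start site lay 18624.5 bp away on chromosome 4, from 135876683 to 135876856, and belonged to Pnrc2 by the same rule, so no accessibility value is given for Cnr2.

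Accessible chromatin was measured in single cells of the mouse pre-B cell line B3 that carries ERt2-Ikaros, an Ikaros protein fused to a hormone-binding domain and held back until 4-hydroxytamoxifen is added. 0-hour cells carried the same construct and were taken before 4-hydroxytamoxifen, and 24-hour cells were taken 24 hours after it, with a repeat dose in between. The design asks which chromatin differs before and after Ikaros induction in this one line. Capture on the Fluidigm C1, a microfluidic chip that isolates single cells, was done in 2 runs for each time-point and left 48 and 47 0-hour cells and 60 and 72 24-hour cells in the deposited matrix. Each run held cells of 1 time-point, so run and time-point can be told apart only through the spread between the 2 runs of a time-point. Nothing in the sources used here says that the runs came from separate cultures, and the tests measure the spread between these runs, which may be technical.

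Lymphoid cells bring in glucose through facilitative transporters of the SLC2 family, trap it as glucose 6-phosphate with a hexokinase, commit it to glycolysis with phosphofructokinase and reduce the final pyruvate to lactate with lactate dehydrogenase. Txnip encodes thioredoxin-interacting protein, an arrestin that removes glucose transporters from the cell surface and whose gene is itself switched on when glucose products build up. Nr3c1 encodes the glucocorticoid receptor and Cnr2 a cannabinoid receptor of immune cells. In B-cell precursors, Ikaros and Pax5 are known to restrain glucose uptake, and these 3 genes are known effectors of that restraint.

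The sequences of 5 regions at the start sites of Txnip, Slc2a3, Slc2a1 and Hk2 are shown. Txnip, Slc2a3 and Slc2a1 had the largest differences of a gene sum or of the region nearest a gene start. Hk2 was the one member gene with both 24-hour runs higher (background 21.5% of all genes). Its log2 change of 0.30 was smaller than its standard error of 0.64. The sequences are given 5′ to 3′ on the forward strand of mm10. Capitals mark GGGAA, the core that Ikaros proteins bind, read on either strand, so that a match on the reverse strand appears as TTCCC. In the Txnip sequence, capitals also mark a pair of CACGAG boxes with 5 bases between them, the layout of a carbohydrate response element, which MondoA and ChREBP bind with Mlx.
Txnip, 136 bp upstream of the start site, chr3:96557743-96557899: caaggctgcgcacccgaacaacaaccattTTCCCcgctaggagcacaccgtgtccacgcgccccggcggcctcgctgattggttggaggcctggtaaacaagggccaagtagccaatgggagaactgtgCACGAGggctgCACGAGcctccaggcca
Slc2a3, 395 bp upstream, chr6:122801963-122802107: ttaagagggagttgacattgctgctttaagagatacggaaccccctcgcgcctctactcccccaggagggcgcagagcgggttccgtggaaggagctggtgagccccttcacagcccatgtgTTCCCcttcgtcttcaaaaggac
Slc2a3, 192 bp downstream in the first intron, chr6:122801385-122801511: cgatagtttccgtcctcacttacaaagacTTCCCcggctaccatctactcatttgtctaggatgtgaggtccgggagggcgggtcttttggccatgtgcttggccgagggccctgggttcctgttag
Slc2a1, 105.5 bp upstream, chr4:119108531-119108680: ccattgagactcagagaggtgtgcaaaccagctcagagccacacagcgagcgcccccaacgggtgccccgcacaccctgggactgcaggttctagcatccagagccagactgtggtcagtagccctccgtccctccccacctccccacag
Hk2, 107 bp upstream, chr6:82774489-82774633: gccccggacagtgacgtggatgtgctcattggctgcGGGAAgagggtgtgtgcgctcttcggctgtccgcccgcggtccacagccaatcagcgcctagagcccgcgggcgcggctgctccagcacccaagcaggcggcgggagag

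The Txnip promoter region and both Slc2a3 regions hold 1 GGGAA match each on the reverse strand, and the Hk2 region holds 1 on the forward strand. No GGGAA lies in the 150 bp of the Slc2a1 promoter region. The pair of CACGAG boxes was looked for after the Txnip sequence had been read. Of the 20103 regions, 1 holds it, the Txnip promoter region. These matches describe the sequence and say nothing of which factor was bound.

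The counts of the 4 runs summed to between 92639 and 164357, with medians per cell of 2898 and 1787 counts in the 0-hour runs and 1839.5 and 1676 counts in the 24-hour runs. 0-hour run 1 was therefore the deepest per cell, and shares of cells with signal depend on that depth. No value in the matrix is above 2, and no region has signal in fewer than 5 cells. Of the 27 member regions, all of which meet this minimum, 7 reach it in 0-hour cells alone, 3 in 24-hour cells alone, 14 in each time-point and 3 only over both together. A region that met it through 1 time-point had to have more cells with signal there, so the sizes of such differences, and their tests, are conditioned on it. The 7 are all 3 Slc2a3 regions and 1 region each of Nr3c1, Txnip, Slc2a1 and Ldha, and the 3 are 2 of Ldha and 1 of Pfkl. Of the B-lineage marker genes, 8 of 9 had a region, with Rag1 without one, and their regions held 13.17 to 16.25 counts per 10000 in the 0-hour runs and 12.9 to 16.72 in the 24-hour runs. Of the T-cell, myeloid, erythroid and stromal or endothelial markers, 2 of 6, 1 of 5, 1 of 4 and 0 of 4 genes had a region. These sums rest on 2, 1, 1 and 0 regions, against 30 for the B lineage, and ranged from 0 to 0.979 counts per 10000, so they are not comparable in size and do not show how much signal of other cell types was present.

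Measured against all counts of a run, the 8 repressor regions held 3.53 and 3.45 counts per 10000 at 0 hours and 2.61 and 1.89 at 24 hours. The time-points did not overlap, and the mean was 3.49 ± 0.053 (SD, n = 2 runs) before and 2.25 ± 0.51 (SD, n = 2 runs) after induction, a log2 change of -0.63. The 19 transport and glycolysis regions held 9.92 and 9.71 counts per 10000 at 0 hours and 12.07 and 9.12 at 24 hours. Here the 24-hour runs lay on both sides of the 0-hour runs, with a log2 change of 0.11. The ratio of repressor to transport and glycolysis counts, which is free of the depth of a run, was 0.356 and 0.356 at 0 hours but 0.216 and 0.208 at 24 hours. The log2 change of this ratio was -0.75, and the 2 runs of each time-point lay close together. These ratios rest on 58 and 32 repressor counts at 0 hours and 32 and 27 at 24 hours. The closeness of the runs is therefore no measure of error. On detected or not detected values the ratio was 0.396 and 0.328 at 0 hours and 0.223 and 0.24 at 24 hours. In cells thinned at random to equal depth the repressor signal was 1.99 and 3.38 counts per 10000 at 0 hours and 2.54 and 1.52 at 24 hours, which overlapped, and the ratio was 0.186 and 0.351 against 0.167 and 0.157. These group values are descriptions without a test, because the genes were chosen with earlier results of these data known.

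**Figure D1:**
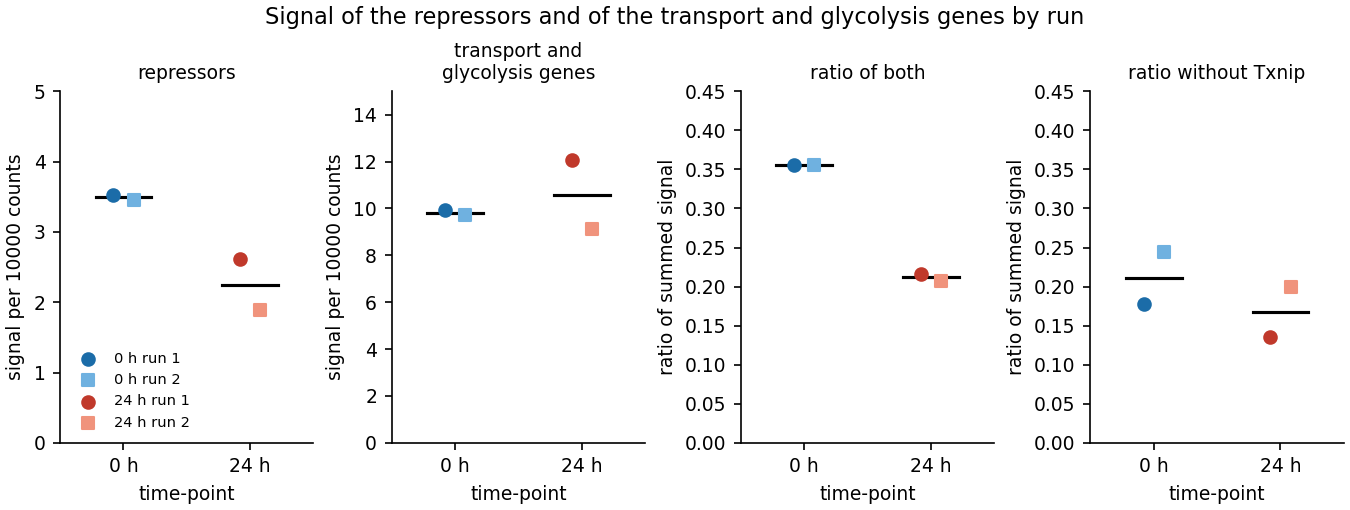
Signal of the repressor regions and of the transport and glycolysis regions per 10000 counts of a run, and the ratio of the 2 sums with and without Txnip, at 0 and 24 hours; each point is a C1 run and each bar the mean of 2 runs. The ratio was 0.356 in both 0-hour runs, 0.216 in 24-hour run 1 and 0.208 in 24-hour run 2, while without Txnip the runs of the 2 time-points overlapped.

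The ratio depended most on the 2 repressors that had regions. Without the Txnip regions, the ratio was 0.178 and 0.244 at 0 hours and 0.135 and 0.2 at 24 hours, so that the time-points overlapped, with a log2 change of -0.33. Without the Nr3c1 regions it was 0.178 and 0.111 against 0.0811 and 0.00769, a log2 change of -1.70. Leaving out Slc2a3, the one transporter whose 24-hour runs were both lower, took the log2 change to -0.96.

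Some signal in the repressor regions was found in 25 of 48 cells (52.1%, exact Clopper-Pearson 95% interval 37.2% to 66.7%) and 15 of 47 cells (31.9%, 19.1% to 47.1%) of the 0-hour runs. At 24 hours it was found in 18 of 60 cells (30.0%, 18.9% to 43.2%) and 15 of 72 cells (20.8%, 12.2% to 32.02%). Both 0-hour shares lay above both 24-hour shares, but with each cell brought to 837 counts the expected shares were 21.2% and 20.9% at 0 hours and 22.4% and 11.8% at 24 hours. At equal depth, then, 24-hour run 2 alone lay below the other 3 runs. The thinning left out 23 of the 227 cells, 1 at 0 hours in run 2 and the others at 24 hours. Transport and glycolysis regions gave signal in 83.3% and 72.3% of 0-hour cells and 66.7% and 58.3% of 24-hour cells. At 837 counts these shares became 52.8% and 52.4% against 59.1% and 43.9%, and the time-points overlapped. The intervals cover counting error only.

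**Figure D2:**
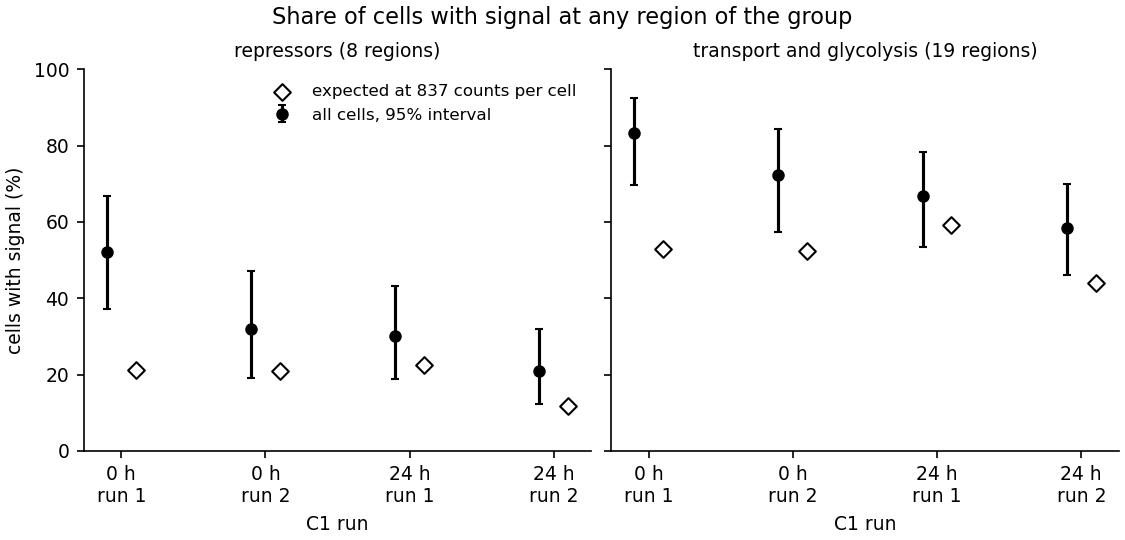
Percentage of cells with signal in any repressor region (left) and any transport or glycolysis region (right) in each C1 run; filled points are all cells with exact 95% intervals and open diamonds the shares expected at 837 counts per cell. For the repressors the unthinned shares run from 52.1% in 0-hour run 1 to 20.8% in 24-hour run 2, whereas at equal depth the first 3 runs lie between 20.9% and 22.4%.

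Within a cell, signal for both groups was found in 24 and 12 0-hour cells and in 14 and 13 24-hour cells of the runs. Signal in the repressors without any in the transport and glycolysis genes was rare, in 1, 3, 4 and 2 cells. Cells with repressor signal were the deeper ones in every run, with median depths of 3614 and 2484 counts at 0 hours and 2062 and 2184 counts at 24 hours, against 2061, 1564, 1747 and 1490 counts in the cells without it. A cell had signal in a mean of 2.94 and 1.72 of the 27 regions in the runs at 0 hours and 1.92 and 1.36 in those at 24 hours, with 14 as the highest number in a cell.

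Txnip was the repressor with the larger difference. Its gene lies on chromosome 3 from 96557957 to 96561883 on the forward strand. Summed over its 2 regions, the normalised signal was 205.5 and 126.4 CPM in the 0-hour runs and 108.7 and 7.9 CPM in the 24-hour runs, where CPM sets the counts of each run to the same total after TMM, a scaling of the runs to each other. The time-points did not overlap, but 24-hour run 1 was close to 0-hour run 2, and 24-hour run 2 held 1 count in all. At 837 counts per cell, the expected shares of cells with signal in either Txnip region were 12.5% and 5.97% at 0 hours and 9.78% and 1.04% at 24 hours, which overlapped. The log2 change was -1.57 with a standard error of 0.67 (unadjusted p = 0.0202, adjusted p = 0.291 in edgeR's quasi-likelihood test over all genes). This did not pass the threshold of an adjusted p of 0.05. Without 24-hour run 1 the log2 change was -4.27, and without 24-hour run 2 it was -0.66. Each of these fits had 1 run at 24 hours, so only the size of the change is given.

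The Txnip promoter region, whose sequence with the CACGAG pair is shown above, was detected in 9 and 4 cells of the 0-hour runs (18.8% and 8.51%) and in 5 and 1 cells of the 24-hour runs (8.33% and 1.39%). The shares of 0-hour run 2 and 24-hour run 1 were nearly equal, and its log2 change of -1.32 had a standard error of 0.88 (edgeR adjusted p = 0.589). It was -3.29 without 24-hour run 1 (edgeR adjusted p = 0.104) and -0.49 without 24-hour run 2 (edgeR adjusted p = 0.915). At 837 counts per cell the expected shares were 5.75% and 4.34% against 4.09% and 1.04%. The second Txnip region, from 96564777 to 96564906 and past the 3′ end of the gene, was detected in 9, 2, 4 and 0 cells of the 4 runs in the same order. Its time-points overlapped, and it met the minimum of 5 cells through its 0-hour cells alone.

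For Nr3c1, on the reverse strand of chromosome 18 from 39410545 to 39519421, the 6 regions together gave 205.5 and 278.1 CPM at 0 hours and 181.2 and 205.3 CPM at 24 hours. The lowest 0-hour and the highest 24-hour value were nearly the same, and the log2 change of -0.30 was smaller than its standard error of 0.46 (edgeR adjusted p = 0.871). With the 10 kb window, which leaves the one region at the gene start, its sign was reversed. That region, 72.5 bp inside the gene start, was detected in 3 and 1 0-hour cells and 3 and 1 24-hour cells. The other 5 lie 27782 to 43372.5 bp inside the gene, and 4 of them lie within 338 bp of the start of another annotated Nr3c1 transcript, since this receptor gene is transcribed from several alternative first exons. These 4 were detected in 6 to 18 cells each and 3 of them overlapped between the time-points.

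The remaining Nr3c1 region, intronic and 43372.5 bp from the gene start, from 39476001 to 39476096, stood out among the 6. It was detected in 3 of 48 and 3 of 47 0-hour cells (6.25% and 6.38%) but in 0 of the 132 cells at 24 hours, which by a floor of 3 cells over both runs leaves room for 2.27%. It entered the matrix through its 0-hour cells alone. edgeR gave an unadjusted p of 0.0209 and an adjusted p of 0.312, so the difference did not pass the threshold.

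**Figure D3:**
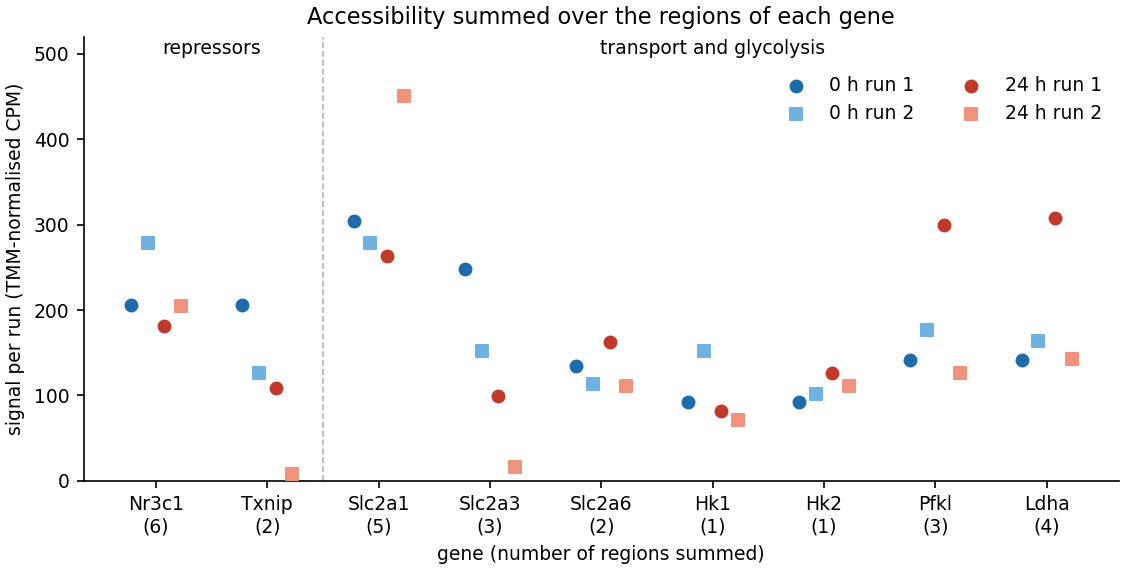
Normalised accessibility in CPM, summed over the regions of each gene, in the 4 C1 runs (0 hours in blue, 24 hours in red; the dashed line separates the repressors from the transport and glycolysis genes). Txnip and Slc2a3 have their lowest value in 24-hour run 2, at 7.9 and 15.8 CPM, while Slc2a1 has its highest there, at 450.2 CPM.

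The 3 transporters differed among themselves. Slc2a3, the high-affinity transporter of neurons and lymphoid cells, had 248 and 151.7 CPM in the 0-hour runs and 99.7 and 15.8 CPM in the 24-hour runs over its 3 regions. All 0-hour values lay above all 24-hour values, with a log2 change of -1.85 and a standard error of 0.63. The edgeR adjusted p of 0.157 (unadjusted 0.00383) did not pass the threshold. All 3 regions met the minimum of 5 cells through their 0-hour cells alone, so the higher 0-hour signal of this gene and its test are conditioned on that minimum. With 1 run left out, the log2 change stayed negative and ranged from -3.62 without 24-hour run 1, where it passed (edgeR adjusted p = 0.00278), to -1.05 without 24-hour run 2.

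Under that condition, each of the 3 Slc2a3 regions had both 0-hour runs above both 24-hour runs (background 25.7% of all regions). This is no independent support for the gene sum. The region in the first intron, 192 bp from the start site, was detected in 7 and 4 0-hour cells (14.6% and 8.51%) and 2 and 1 24-hour cells (3.33% and 1.39%), with a log2 change of -1.67 (standard error 1.00, edgeR adjusted p = 0.532). The region 395 bp upstream was detected in 8, 3, 3 and 0 cells of the runs, and the one 3008.5 bp upstream in 5, 2, 1 and 0 cells. At 837 counts per cell, the share of cells with signal in any of the 3 was 14.6% and 10.0% at 0 hours and 7.56% and 1.43% at 24 hours, so the order of the time-points was kept at equal depth, whereas for the sums of randomly thinned cells the log2 change was -0.58.

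Slc2a1 encodes GLUT1, the basal transporter of most growing cells. Over its 5 regions it had 304.7 and 278.1 CPM at 0 hours and 262.7 and 450.2 CPM at 24 hours. The time-points overlapped (log2 change 0.29 with a standard error of 0.40, edgeR adjusted p = 0.850). The sign was reversed with the number of cells as offset or without 24-hour run 2. Its regions went in different directions. The promoter region 105.5 bp upstream had 54.6 and 41.8 CPM in the 0-hour runs and 129.4 and 176 CPM in the 24-hour runs, and was detected in 7, 3, 10 and 15 cells. Both 24-hour runs were higher than both 0-hour runs, with a log2 change of 1.62 (standard error 0.65, unadjusted p = 0.0154, adjusted p = 0.297 in edgeR). The log2 change stayed between 1.13 and 1.64 over the alternatives that kept all runs and between 1.37 and 1.87 with 1 run left out, and at 837 counts per cell the shares were 5.82% and 4.23% against 10.3% and 11.1%.

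Next to it, the Slc2a1 region 473 bp inside the gene was detected in 8 and 3 0-hour cells and 2 and 13 24-hour cells, so that the 24-hour runs were at both extremes. An intronic region 10178 bp inside the gene, from 119118817 to 119118961 with 1 GGGAA match, was detected in 4 and 3 0-hour cells and 1 and 0 24-hour cells. It too met the minimum of 5 cells through its 0-hour cells alone, with 11 counts at 0 hours and 1 at 24 hours (log2 change -3.20, standard error 1.52, edgeR adjusted p = 0.372). The regions 2768.5 bp upstream and 18718 bp inside the gene overlapped between the time-points.

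Slc2a6, a transporter of the lysosomal membrane, had 134.7 and 113.8 CPM at 0 hours and 163.1 and 110.6 CPM at 24 hours. These values overlapped. Its start-site region, which spans 27027955 to 27028101 of chromosome 2, was detected in 28 cells and a second one 835.5 bp upstream in 6.

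Of the hexokinases, which phosphorylate glucose on entry, Hk1 had 92.1 and 151.7 CPM at 0 hours and 81.5 and 71.1 CPM at 24 hours from its single region. That region lies 39647 bp inside the longest gene model and 281 bp from the start of another Hk1 transcript, on chromosome 10 from 62340179 to 62340343. The 0-hour values were both the higher ones, with a log2 change of -0.63 that was smaller than its standard error of 0.68 (edgeR adjusted p = 0.789). With thinned cells the log2 change was -1.56 (standard error 1.03), and with all transcript starts, which assign further signal to Hk1, it was -1.34 (standard error 0.56, edgeR adjusted p = 0.316). Without 0-hour run 2 it was -0.26. Hk2, the inducible hexokinase, had 92.1 and 101.1 CPM at 0 hours and 126.8 and 110.6 CPM at 24 hours from its promoter region. It was the one member gene with both 24-hour runs above both 0-hour runs, by a log2 change of 0.30 with a standard error of 0.64, and the sign was reversed with the number of cells as offset.

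Pfkl encodes the liver-type subunit of phosphofructokinase, which commits sugar to glycolysis. It had 141.7 and 177 CPM in the 0-hour runs and 299 and 126.4 CPM in the 24-hour runs. The 24-hour runs lay on either side of the 0-hour runs. Of its 3 regions, the one 8800.5 bp upstream, from 78018809 to 78018958 on chromosome 10, was detected in 3 and 0 0-hour cells and 6 and 3 24-hour cells, with normalised signals of 30.3 and 0 against 88.9 and 44.01 CPM (log2 change 1.83, standard error 1.03, edgeR adjusted p = 0.493). It met the minimum of 5 cells through its 24-hour cells alone. The other 2 lie 282 and 711 bp inside the gene and overlapped.

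Ldha encodes the muscle-type subunit of lactate dehydrogenase and had 141.7 and 164.3 CPM at 0 hours and 308 and 142.2 CPM at 24 hours over 4 regions. As for Pfkl, the high value was that of 24-hour run 1, and without this run the sign of both genes was reversed. The 4 regions differed. The one from 46846935 to 46847119 on chromosome 7, which overlaps a 5′ UTR 55 bp from an annotated transcript start, was detected in 1 and 2 0-hour cells and 6 and 10 24-hour cells (log2 change 1.97, standard error 0.95, edgeR adjusted p = 0.385). The one 8048 bp upstream was detected in 0 and 1 against 5 and 2 cells (log2 change 3.26, standard error 1.501, edgeR adjusted p = 0.353). Both of these regions met the minimum of 5 cells through their 24-hour cells alone. The one 2454.5 bp upstream was detected in 5 and 3 against 3 and 0 cells, in the other direction, and met the minimum through its 0-hour cells alone. At the cluster of 7 annotated transcript starts from 46845714 to 46845868, signal was found in 6 and 3 0-hour cells and 7 and 1 24-hour cells, which overlapped.

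**Figure D4:**
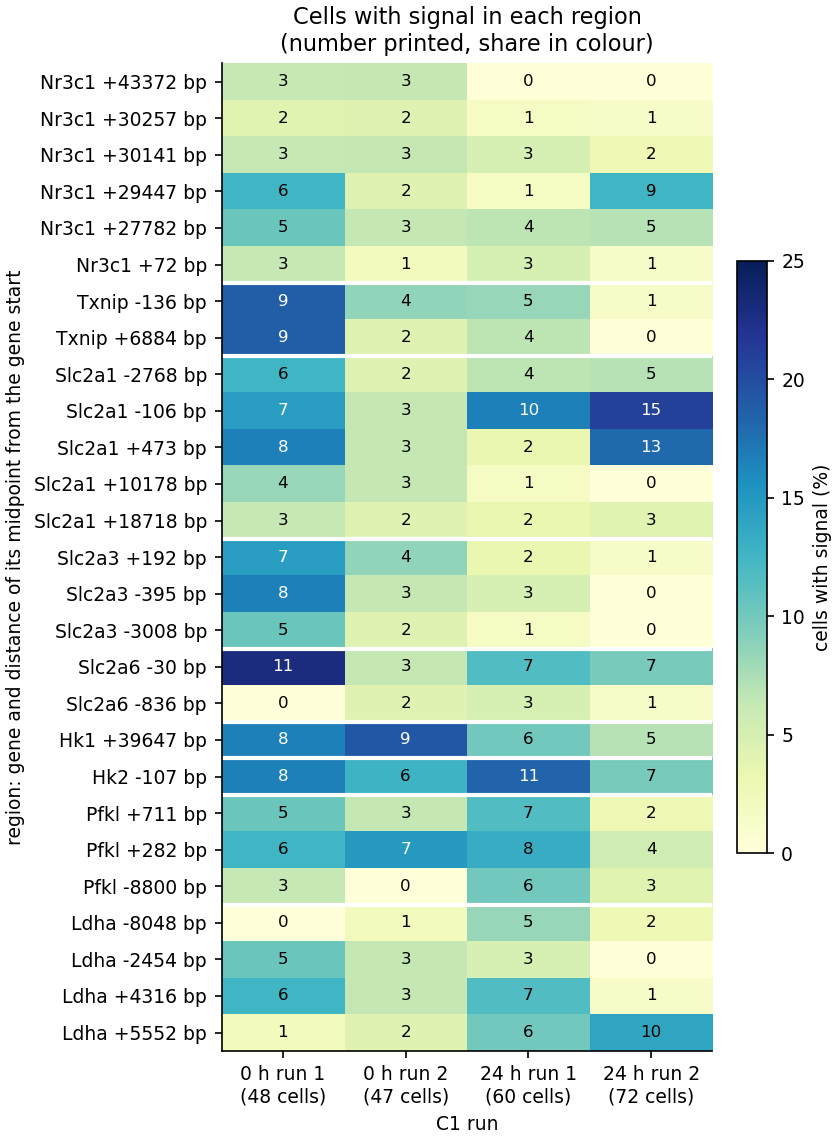
Number of cells with signal in each of the 27 regions in each C1 run, with the share of the run's cells in colour; rows give the gene and the distance of the region's midpoint from the gene start. The Slc2a1 region 105.5 bp upstream has 15 cells in 24-hour run 2, against 3 cells in 0-hour run 2.

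Over the 27 regions, 0 passed an adjusted p of 0.05 in edgeR in either direction, where 0.0149% of all regions were called higher at 0 hours and 0.0398% higher at 24 hours. At an unadjusted p of 0.05, edgeR counted 2 regions higher at 0 hours (background 7%) and 3 higher at 24 hours (background 5.11%). DESeq2 called 0 and counted 1 in all, higher at 24 hours, and no share over all regions is given for it. The time-points did not overlap in 9 regions that were higher at 0 hours and 5 that were higher at 24 hours, against 25.7% and 19.3% of all regions. With 33.3% and 18.5% of the members, these shares were near the background. By position, 3 of the 11 member regions within 1 kb of a gene start were higher in both 0-hour runs (background 13.1%) and 2 in both 24-hour runs (background 28%). Of the 16 farther away, 6 were higher in both 0-hour runs (background 33.2%) and 3 in both 24-hour runs (background 13.3%). The median log2 change was 0.048 over the 27 regions and -0.063 over all regions. It was -0.84 over the 8 repressor regions and 0.058 over the 19 transport and glycolysis regions, but these groups differ in distance from gene starts. Of the repressor regions 6 of 8 lie over 1 kb from a gene start and of the others 10 of 19, and over all regions the median was 0.33 within 1 kb and -0.43 from 1 to 50 kb. For the members it was 0.23 within 1 kb and -0.27 farther away. Most Nr3c1 regions far from the gene start lie within 338 bp of another transcript start. The contrast in position between the 2 groups therefore holds for gene starts only, and its part in the medians was not tested.

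**Figure D5:**
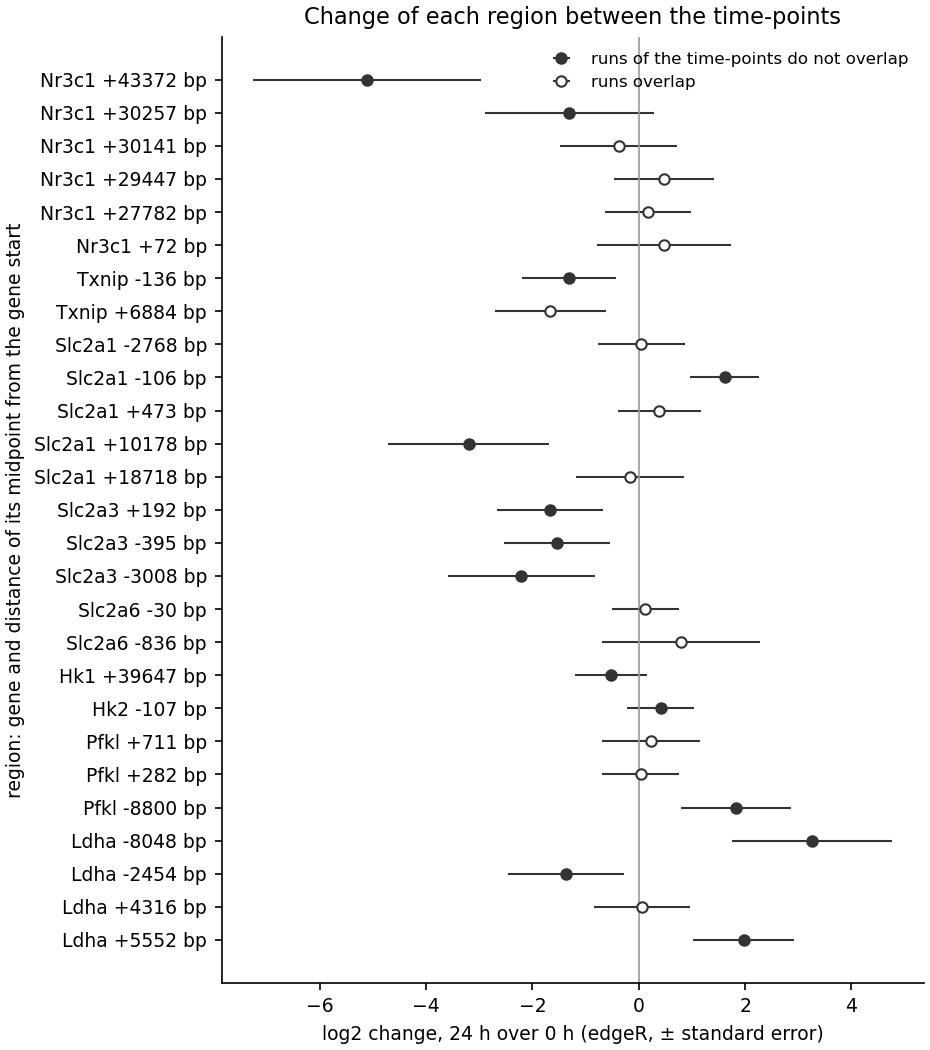
Log2 change from 0 to 24 hours of each of the 27 regions in edgeR with its standard error; filled points are regions whose runs of the 2 time-points do not overlap. All 3 Slc2a3 regions lie below 0, whereas the Slc2a1 and Ldha regions lie on both sides of it.

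Over the 9 genes, 0 passed an adjusted p of 0.05 in edgeR, where 0.192% of all 9894 genes were called higher at 0 hours and 0.162% higher at 24 hours. At an unadjusted p of 0.05, edgeR counted 2 higher at 0 hours, Slc2a3 and Txnip (background 6.23%), and 0 higher at 24 hours (background 5.77%). DESeq2 called 0 genes and counted 1, higher at 0 hours, and no share over all genes is given for it. Slc2a1 was the only one of these genes with an adjusted p in DESeq2, so its 0 calls say nothing of the others. The time-points did not overlap for Nr3c1, Txnip, Slc2a3 and Hk1, which were higher at 0 hours (background 21.9%). Nor did they for Hk2, which was higher at 24 hours (background 21.5%). Nr3c1 was apart by 205.5 against 205.3 CPM only. Per 10000 counts of a run, its values were 1.76 and 2.375 at 0 hours and 1.63 and 1.82 at 24 hours, which overlapped.

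In features that the rule did not use, the members were near the values over all regions. They were detected in 6 to 35 cells, with a median of 15, against a median of 13 over all regions, and had a median GC content of 60.4% against 58.2%. Per kilobase of region, the lowest signal was 65.2 counts, in the upstream Slc2a6 region, and the highest was 406.6 counts, in the 91 bp Pfkl region at a transcript start. Each of the 27 regions had a single copy in the genome, which was not counted for the other regions. The GGGAA core lay in 12 of the 27 regions. Among regions of 140 to 160 bp it lay in 7 of 16 members and in 38.4% of all 8042 such regions.

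Other motifs were searched on both strands in the same 16 regions. ACGTG, the core of the hypoxia response element, lay in 5 of them and in 13.8% of all regions of this width, and the Ldha region at the cluster of transcript starts held 3 matches. CACGTG, the E-box that contains this core, lay in that Ldha region alone, with a background of 5.58%. CCAAT lay in 5 (background 26.1%), with 2 matches each in the Txnip promoter, Hk2 and Slc2a6 start-site regions. GGGCGG, the GC box of Sp factors, lay in 7 (background 36.6%). AGAACA, a half-site of the glucocorticoid receptor, lay in 1, the Slc2a1 region 18718 bp inside the gene (background 7.64%), and CACGAG in 1, the Txnip promoter (background 4.58%).

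Of the wider lists of glucose and energy genes, 63 of 87 genes had a region and 1 passed an adjusted p of 0.05 in edgeR, lower at 24 hours, where 0.192% of all genes were called higher at 0 hours and 0.162% higher at 24 hours. This was Pfkfb3, whose product makes the activator of phosphofructokinase. Its signal over 2 regions was 205.5 and 227.5 CPM in the 0-hour runs and 45.3 and 7.9 CPM in the 24-hour runs. The values fell by 3.02 on the log2 scale, with a standard error of 0.71 and an edgeR adjusted p of 0.0288. Both of its regions met the minimum of 5 cells through their 0-hour cells alone, so this call is conditioned on that minimum. The region 78.5 bp inside the gene was detected in 12 and 6 0-hour cells and 1 and 1 24-hour cells. The call was lost without 0-hour run 1, 0-hour run 2 or 24-hour run 2 (edgeR adjusted p = 0.235, 0.482 and 0.166), with a log2 change of -2.22 to -4.59 over all 4 runs left out in turn. It was also lost with the number of cells as offset (log2 change -3.35, edgeR adjusted p = 0.111), thinned cells (-3.70, 0.333), the 10 kb window (-3.13, 0.0661) and transcript start sites (-3.02, 0.0968), so that the size of the difference was kept in these. It passed with run totals (edgeR adjusted p = 0.036), detected or not detected values (0.0365), the replicate block (0.0368) and all gene types (0.0168), and without 24-hour run 1 (0.000856).

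Among the other genes of these lists, 0 passed the adjusted threshold. The largest differences with separate runs and lower values at 24 hours were those of Pfkfb1, of the same enzyme family (log2 change -2.18), and Prkag2, a subunit of the energy sensor AMPK (-1.84). Higher values at 24 hours were found for Pgls, an enzyme of the pentose phosphate pathway (2.22), Ncoa1, a coactivator of nuclear receptors (2.02), and Vhl, which marks hypoxia-inducible factors for breakdown (1.84). Pfkfb1 and Prkag2 had 9.06 and 7.9 and 18.12 and 7.9 CPM at 24 hours. Ncoa1 and Vhl had 28.35 and 0 and 14.17 and 0 CPM at 0 hours. These signals, from 1 region each, were too low to meet the minimum of 5 cells by themselves. The sizes of the differences of Pfkfb1, Prkag2, Ncoa1 and Vhl are thus conditioned on that minimum. Of the 63 genes, 12 were higher in both 0-hour runs and 18 in both 24-hour runs, against 21.9% and 21.5% of all genes. By list, in the same order of direction, these genes numbered 3 and 2 of 10 other glycolytic enzymes, 2 and 1 of 5 other glucose and monocarboxylate transporters, and 2 and 0 of 9 switches of glucose use. They numbered 0 and 3 of 7 pentose phosphate genes, 2 and 1 of 6 glucose sensing and arrestin genes, and 1 and 5 of 9 partners and targets of the glucocorticoid receptor. For energy and insulin sensing they were 2 and 4 of 13 genes and for the hypoxia response 0 and 2 of 4. The median log2 change over the 63 genes was 0.21, against 0.038 over all genes.

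By detection over the 227 cells, the regions most like the Txnip promoter region, measured by the phi coefficient, were those nearest Il2ra (0.414), Zswim7 (0.406) and Mrps23 (0.405), which shared 8, 5 and 7 cells with it. For the Slc2a1 promoter region they were those nearest Kif21b (0.355), Usp14 (0.352) and Zfp3 (0.351), sharing 12, 5 and 7 cells. The 99th percentile over all regions was 0.280 and 0.226. Being the highest, the named regions lie above it by choice. Those nearest Zswim7 and Usp14 had signal in only 7 and 5 cells. The cells share libraries and depth, so these coefficients describe the matrix and were not tested.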

How the data were processed

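Single-cell ATAC-seq of ERt2-Ikaros B3 cells was analysed at 2 time-points with 2 C1 runs each. Per the submitters' processing notes and the study's methods, the authors mapped reads to mm10 with Bowtie2 (Bowtie in the notes), removed duplicates with Picard, called peaks on bulk samples with HOMER and deposited counts per region and cell without normalization. No value is above 2. All per-sample columns were used, and the bulk samples were not analysed here. Groups follow the labels, which give 1 cell more at 0 hours and 1 fewer at 24 hours than the study's text. No doublet caller was run, since capture sites were inspected by eye.

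The run is the replicate. The counts of its cells were added up and tested with the quasi-likelihood F-test of edgeR 4.0.16 (R 4.3.3) after TMM scaling, for all 20103 regions and for 9894 genes. P-values were adjusted by Benjamini-Hochberg and called below 0.05. Sums per gene used the regions whose nearest GENCODE vM21 gene start was within 50 kb. Sequences came from the mm10 reference, and genome copies were counted with BLAST 2.17.0 at 90% identity over 80% of a region. Intervals are exact Clopper-Pearson intervals at 95%, and the limit for a count of 0 is a floor of 3 cells of the total, both for counting error only. Shares at equal depth are those expected with each cell at 837 counts, the depth that 204 cells reached. The fits were tested on simulated data. At a spread like that of the regions here, few of the changed regions were recovered. A count of 0 calls therefore does not show that the members were unchanged. Alternatives were run totals, the number of cells as offset, DESeq2 1.42.0, a filter of 10% of cells, detected or not detected values, thinned cells (seed 20), a replicate block, each run or gene left out, a 10 kb window, all gene types and all transcript starts.

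All regions of the members are accounted for, and of each gene the region nearest its start was carried through the alternatives. From the wider lists, up to 3 genes in each direction are named, those with the largest log2 change among genes whose runs did not overlap, and for likeness the 3 regions with the highest phi coefficient. The members and lists were chosen with earlier results of these data known.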

Additional observations from a re-analysis of the deposited data

How the results depend on the processing

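Thinning both lowered the depth and left out 23 cells, and DESeq2 differs from edgeR in scaling, dispersion and test. The use of all transcript starts and every alternative for Pfkfb3 were added after the data were seen. The number of regions called was 0 under every alternative that kept all runs. The number of genes called was 0 under those alternatives too. Without 24-hour run 1, the log2 changes of Txnip and Slc2a3 were -4.27 and -3.62. A time-point left with 1 run has no spread of its own, and no share over all genes is given for such fits. Calls with 1 run left out therefore cannot be set against a background. DESeq2 gave no adjusted p for 8 of the 9 genes. Taking the number of cells as offset moved the median log2 change of all regions from -0.063 to -0.51. With the replicate block the counts were 0 and 0. Same-numbered runs did not deviate together (r = -0.023 across regions). With a median of 13 cells with signal per region, counting error could hide a shared deviation. This value therefore cannot decide whether such runs share more than a number.

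The log2 change of the repressor signal was -1.06 per cell, -1.02 with the 10 kb window, -1.44 without Nr3c1, -0.26 without Txnip and -0.88 to -0.42 with 1 run left out. That of the transport and glycolysis signal was -0.31 per cell, 0.31 without Slc2a3 and -0.11 to 0.30 with 1 run left out. That of the ratio was -0.64 on detected or not detected values, -1.42 with the 10 kb window, -0.62 with all gene types, -0.60 with all transcript starts, -1.70 without Nr3c1, -0.33 without Txnip, -0.58 without Slc2a1, -0.96 without Slc2a3, -0.81 without Hk1, -0.68 without Pfkl, -0.65 without Ldha and -0.78 to -0.72 with 1 run left out. It was negative in each of these.

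Of 107 values for the log2 change of a gene, 97 kept their direction and their side of the threshold and 8 changed sign. These were Nr3c1 with the 10 kb window (0.27), Slc2a1, Slc2a6 and Hk2 with the cell-number offset (-0.093, -0.26 and -0.048), Slc2a1 without 24-hour run 2 (-0.16), and Slc2a6, Pfkl and Ldha without 24-hour run 1 (-0.19, -0.31 and -0.088). With 1 run left out, the highest values of these genes were 0.62 for Slc2a1, 0.37 for Slc2a6, 0.93 for Pfkl and 1.02 for Ldha. Of 95 values for the region nearest a start site, 12 changed sign. These were Nr3c1 with thinned cells (-0.17) and without 24-hour run 1 (-0.38), Hk2 with the cell-number offset (-0.048), Slc2a6 with that offset (-0.40), with the filter (-0.14) and without 0-hour run 2 (-0.20), and Pfkl with run totals (-0.013), that offset (-0.36), the filter (-0.22), detected or not detected values (-0.075), without 0-hour run 1 (-0.33) and without 24-hour run 1 (-0.46). Their highest values with 1 run left out were 1.03 for Nr3c1, 0.69 for Slc2a6 and 0.45 for Pfkl. The cause was not tested.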
